A study of Mus musculus with 37 samples.

Results

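The T cell receptor beta chain is assembled in each developing T cell by joining 1 variable segment (TRBV), 1 short diversity segment (TRBD) and 1 joining segment (TRBJ). The mouse locus carries its joining segments in clusters. TRBJ1 lies downstream of TRBD1 and is followed by the constant gene TRBC1, and TRBJ2 lies downstream of TRBD2 and is followed by TRBC2. The joining segment supplies the last residues of the third complementarity-determining region (CDR3), the loop that contacts the peptide.

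The members described here are the 7 segments of the TRBJ1 cluster, TRBJ1-1 to TRBJ1-7, taken as every clonotype entry whose best J segment is one of them. They are 7 of the 13 TRBJ segments found in the files. A clonotype entry is 1 rearranged sequence with its segments, its CDR3 and its count in 1 library. Of 1704980 entries in 37 libraries, 370113 (21.7%) used a TRBJ1 segment. In the gene order of RefSeq's mouse annotation on chromosome 6 the segments run TRBD1, TRBJ1-1 through TRBJ1-7, TRBC1, TRBD2, and then the TRBJ2 cluster. No coordinates are given because the build of the files is not given in the sources used here.

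Each library was made from lymph node DNA of 1 mouse, so a share is a share of rearranged genes and does not tell how many T cells a node held. No marker gene is measured by this assay, so the tissue label could not be checked. The 32 MMTV-PyMT mice were female littermates and carry the polyoma middle T oncogene under the mouse mammary tumor virus promoter, which drives it mainly in mammary epithelium, and they develop mammary tumors. The other 5 mice were of the genotype FVBN and the group named WTNT, and none of the agents below is listed for them. The agents were PLX3397 (pexidartinib), an inhibitor of the macrophage receptor CSF1R, the injected drug named PTX, and an antibody (aPD-1, clone RMP1-14). The antibody is directed against PD-1, a receptor on T cells that is distinct from the T cell receptor. Chow with PLX3397 at 40 mg/kg/day began when mice were 80 days old, and other mice had control chow. Injections of PTX at 10 mg/kg every 5 days began at 85 days of age. The antibody was given at 1.0 mg and then 0.5 mg per mouse every 5 days from 87 days, with a rat IgG2a isotype as its control. At d105 there were 6 mice labelled PLX+PTX+aPD-1_R (R below), 4 labelled PLX+PTX+aPD-1_NR (NR), 6 PLX+PTX mice, 2 PTX mice and 5 WTNT mice. The d95 set held 5 R mice, 3 NR mice, 3 mice given PLX+PTX and 3 given PTX. What R, NR and WTNT stand for is not spelled out.

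Libraries held 1090573 to 2831566 reads at d105 and 90648 to 917752 reads at d95, so the ranges of the days do not overlap. Entries with a TRBJ1 segment numbered 4822 to 19665 per library at d105 and 614 to 7494 at d95. The shallowest library was NR replicate 1 of d95. Reads come from PCR and are not independent molecules, so intervals and limits given for single libraries cover counting error only. The p-values between groups set a difference against the spread between the mice of the same fit.

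The sequences below show how each member ends the CDR3. For each segment they give the form most frequent among entries whose J part was neither trimmed nor extended (for TRBJ1-7, at its commonest end), with the last codon of the CDR3 in capitals.

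TRBJ1-1: caaacacagaagtcttcTTT
TRBJ1-2: caaactccgactacaccTTC
TRBJ1-3: ttctggaaatacgctctatTTT
TRBJ1-4: tttccaacgaaagattatttTTC
TRBJ1-5: taacaaccaggctcagcttTTT
TRBJ1-6: ttcctataattcgcccctctacTTT
TRBJ1-7: cctgtgttggatgacCAT

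TRBJ1-1 to TRBJ1-6 end in a phenylalanine codon, which closes a conventional CDR3. Phenylalanine was the last residue in 98.5% of TRBJ1-4 entries and in 99.2% to 99.8% of the entries of the other 5 segments from TRBJ1-1 to TRBJ1-6. TRBJ1-7 stood apart: all 215 of its entries ended in CAT, the codon of histidine. The printed form accounted for 93.7% to 96.4% of such entries in TRBJ1-1 to TRBJ1-4 and TRBJ1-6, for 99.5% in TRBJ1-7, and for 64.9% in TRBJ1-5.

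TRBJ1-1 was the most used member and TRBJ1-7 nearly absent. Shares are given in 3 ways, because they do not order the members alike. They are the percent of reads, the percent of the authors' normalised clone counts, which rescale each TRBV and TRBJ pair by a fixed factor, and the percent of clonotypes with every clonotype counted once. By normalised clone counts, TRBJ1-1 averaged 5.60 ± 0.682% of a library (SD, n = 37 for each value here), TRBJ1-6 3.49 ± 1.27%, TRBJ1-3 2.51 ± 0.364%, TRBJ1-4 2.50 ± 0.267%, TRBJ1-2 2.37 ± 0.414%, TRBJ1-5 0.174 ± 0.0947% and TRBJ1-7 0.00536 ± 0.00508%. TRBJ1-1 exceeded TRBJ1-6 in 35 of 37 libraries and exceeded TRBJ1-2, TRBJ1-3, TRBJ1-4 and TRBJ1-5 in every library. TRBJ1-3 exceeded TRBJ1-4 in 20 of 37 libraries, TRBJ1-2 exceeded TRBJ1-3 in 11 of 37 and TRBJ1-2 exceeded TRBJ1-4 in 9 of 37, so no order among these 3 held in every library, and their means lay within 1 SD of each other. TRBJ1-5 lay below each of TRBJ1-1, TRBJ1-2, TRBJ1-3, TRBJ1-4 and TRBJ1-6 in all 37 libraries.

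In reads, TRBJ1-2 was the second member at 6.25 ± 0.405% (SD, n = 37), after TRBJ1-1 at 8.47 ± 1.02%. TRBJ1-6 followed at 5.83 ± 1.22%, TRBJ1-4 at 2.24 ± 0.234% and TRBJ1-3 at 1.36 ± 0.210%. TRBJ1-5 held 0.199 ± 0.104% of reads and TRBJ1-7 0.00946 ± 0.00766%. TRBJ1-2 had more reads than TRBJ1-6 in 23 of 23 d105 libraries and in 0 of 14 d95 libraries. TRBJ1-4 had more reads than TRBJ1-3 in all 37 libraries, an order that normalised clone counts did not show.

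Normalised clone counts and reads differ by the pair factors. Over the TRBV pairs with at least 1000 reads, normalised clone counts per read had a median of 0.527 for TRBJ1-2 (13 pairs), 1.22 for TRBJ1-6 (12 pairs), 1.26 for TRBJ1-1 (12 pairs), 2.45 for TRBJ1-4 (12 pairs), 3.66 for TRBJ1-5 (8 pairs) and 4.25 for TRBJ1-3 (10 pairs). Over all reads of a segment, which weights its pairs by their reads, the ratio was 0.725 for TRBJ1-2, 1.12 for TRBJ1-6, 1.29 for TRBJ1-1, 1.91 for TRBJ1-5, 2.33 for TRBJ1-4 and 3.71 for TRBJ1-3. Within TRBJ1-3 alone the factor ran from 1.08 with TRBV19 to 19.3 with TRBV2. The 7 members together held 16.6 ± 2.38% of normalised clone counts, 24.4 ± 1.22% of reads and 22.1 ± 1.03% of clonotypes counted once (SD, n = 37). The plot of the 3 ways of counting shows the means of TRBJ1-2 and TRBJ1-3 changing places between normalised clone counts and reads. In single libraries only the order in reads was fixed. TRBJ1-2 was the higher in 37 of 37 libraries by reads and in 11 of 37 by normalised clone counts.

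**Figure D1:**
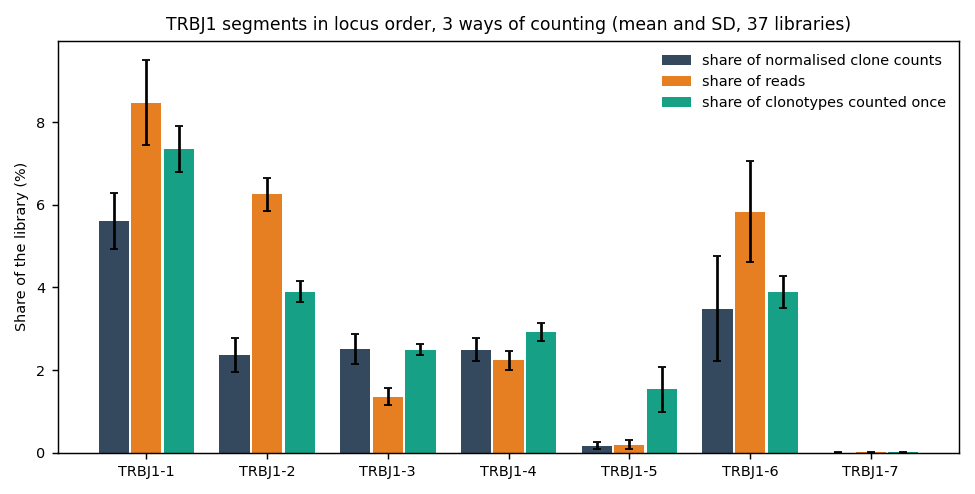
Share of each TRBJ1 segment in the library (percent, vertical axis), with segments in locus order along the horizontal axis. Bars are means of 37 libraries and error bars are SD, for normalised clone counts, reads and clonotypes counted once. TRBJ1-2 holds 6.25% of reads against 2.37% of normalised clone counts, and TRBJ1-5 holds 1.54% of clonotypes but 0.199% of reads.

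Counted once, TRBJ1-5 held 1.54 ± 0.539% of clonotypes (SD, n = 37), a larger share than in reads, and its entries were small. Its median was 2 reads per entry, against 10 for TRBJ1-3, 15 for TRBJ1-4, 30 for TRBJ1-1, 34 for TRBJ1-6 and 40 for TRBJ1-2. Of its 27102 entries 36.5% were of 1 read, against 14.6% to 21.1% in TRBJ1-1 to TRBJ1-4 and TRBJ1-6.

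TRBJ1-5 also occurred in 2 forms that differ by 1 base. They are shown because many of its entries come as such pairs, with the differing base in capitals.

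TRBJ1-5 main form: taacaaccaggctcagcTtttt
TRBJ1-5 second form: taacaaccaggctcagcAtttt

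With positions counted from 1 at the first base shown, the substitution is T18A. The second form made up 30.8% of the TRBJ1-5 entries that were neither trimmed nor extended. The deposited J alignments of TRBJ1-5 had a mean identity of 92.6%, against 99.6% to 99.8% in TRBJ1-1 to TRBJ1-4 and TRBJ1-6. Outside the cluster TRBJ2-7 was low too, at 94.3%, and the other TRBJ2 segments had 99.3% to 99.8%. What lowers the identity was not tested. Among all TRBJ1-5 entries, 9020 (33.3%) carried A at this place, with 18.5% of the segment's reads and a median of 1 read, and 17955 carried T, with 81.4% of reads and a median of 3 reads. The share of A entries per library ran from 14.1% to 43.9% with a median of 31.2%. For 7550 of the 9020 A entries (83.7%), the same library held the T entry with the same TRBV segment and otherwise the same CDR3. That T entry had more reads in 84.0% of these pairs, and the median ratio of A to T reads was 0.333. Of all TRBJ1-5 entries 55.9% had a partner at 1 base of distance in their own library at this place, against 0.1003% to 1.16% in TRBJ1-1 to TRBJ1-4 and TRBJ1-6 at the same distance from their end. Without the entries that had a T partner, the TRBJ1-5 share of clonotypes counted once was 1.12 ± 0.307% (SD, n = 37). Whether the second form is in the DNA of these mice was not tested.

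TRBJ1-7 gave 215 entries with 4041 reads, in 34 of 37 libraries. The 3 libraries without a read of it were NR replicate 1, PLX+PTX replicate 2 and PTX replicate 2 of d95. A count of 0 there allows a share of up to 0.00331%, 0.000865% and 0.000588% of reads, set at 3 reads. Most TRBJ1-7 entries shared a long run of bases, which is shown with the aligned J bases in capitals. These 19 bases include a leading G that the end of 18 bases printed above leaves out.

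TRBJ1-7 shared run: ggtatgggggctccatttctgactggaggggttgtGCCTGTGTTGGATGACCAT

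Of the 215 entries, 169 (78.6%) ended in this run of 54 bases, in which 35 bases precede the J part. The last 20 of those 35 bases stood before the J part in 185 entries (86.0%) and in 0 of the entries of other segments. The CDR3 was correspondingly long, with a median of 26 residues in all 215 entries and in those with the run, and 12.5 residues in the 46 entries without it. The D segment assigned was TRBD2 in 131 entries, TRBD1 in 67 and none in 17. Of the 131 assigned to TRBD2, 128 carried the 20 shared bases. TRBV5 was the commonest partner with 78 entries (36.3%). All 215 nucleotide sequences were distinct, and none was found in 2 libraries. The entry with the highest share of reads, 0.0130% from 54 reads, paired TRBV1 with TRBJ1-7 in NR replicate 2 of d95. The entry with the highest normalised share, 0.0104%, paired TRBV5 with TRBJ1-7 in PTX replicate 3 of d95 and had a CDR3 of 7 residues.

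TRBV1 with TRBJ1-7, highest share of reads: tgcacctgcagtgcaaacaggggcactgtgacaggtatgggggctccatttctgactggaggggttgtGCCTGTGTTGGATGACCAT
TRBV5 with TRBJ1-7, highest normalised share: tgtgccagcagcctgGACCAT

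Both are printed to show the forms with and without the run, J bases in capitals. TRBJ1-7 stayed below a mean share of 0.1% and entered no test. The other 6 members passed this filter, which took the mean over all libraries of a fit. TRBJ1-5 passed it at d95 with a mean of 0.121% over 14 libraries, while the PLX+PTX and PTX libraries of that day averaged 0.0897% and 0.0672%.

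The junctions of the 6 tested members differed in how much of the J segment they kept. Counted once and averaged over 37 libraries, the J part of the CDR3 held 17.5 ± 0.117 bases in TRBJ1-1, 18.3 ± 0.0987 in TRBJ1-2, 21.0 ± 0.0939 in TRBJ1-3, 19.7 ± 0.159 in TRBJ1-4, 18.9 ± 0.270 in TRBJ1-5 and 20.5 ± 0.133 in TRBJ1-6 (SD, n = 37). No base was trimmed from the J segment in 47.7 ± 1.95% of TRBJ1-3 clonotypes, the highest of the 6, and in 16.4 ± 1.20% of TRBJ1-6 clonotypes, the lowest. The stretch between the V and J parts, which holds the D segment and added bases, averaged 7.91 ± 0.218 bases in TRBJ1-3 and 9.25 ± 0.208 in TRBJ1-4, with the other 4 between them. The cluster as a whole had a shorter stretch than TRBJ2 in all 37 libraries, 8.67 ± 0.195 against 10.4 ± 0.225 bases. The plot of the parts of the CDR3 shows TRBJ1-7 apart, with 40.3 ± 7.47 bases between V and J (SD, n = 34 libraries).

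**Figure D2:**
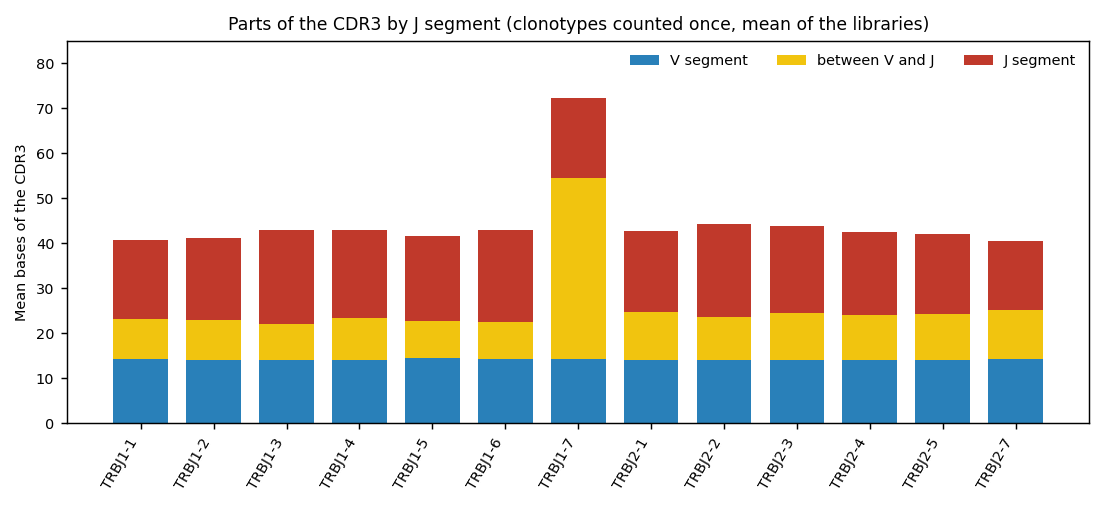
Mean number of CDR3 bases (vertical axis) from the V segment, from the stretch between V and J, and from the J segment, for the 13 J segments found. Clonotypes are counted once, and bars stack means over the libraries that hold the segment. TRBJ1-7 has 40.3 bases between V and J, and TRBJ1-1 to TRBJ1-6 have 7.91 to 9.25.

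CDR3 length within a library divided the members into shorter and longer ones. TRBJ1-1 and TRBJ1-2 were shorter than the clonotypes of all other J segments of the same library in 37 of 37 libraries, by 0.539 ± 0.0345 and 0.308 ± 0.0387 residues (mean and SD of the difference, n = 37). TRBJ1-3, TRBJ1-4 and TRBJ1-6 were longer in 37 of 37 libraries, by 0.302 ± 0.0517, 0.308 ± 0.0643 and 0.303 ± 0.0471 residues. TRBJ1-5 was shorter by 0.165 ± 0.111 residues and shorter in all but 3 libraries. Each gave an adjusted p of 1e-05 in a 2-sided permutation test that flipped the sign of whole libraries, the smallest that 100000 resamples can give. Of the 12 TRBJ segments tested, 58.3% were longer and 41.7% shorter than the rest by the same rule. A call was thus common to all segments and marks none of them out. Weighted by reads, the TRBJ1-5 difference was 0.0197 residues in the other direction, with an adjusted permutation p of 0.779.

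The D motif in the CDR3 set the TRBJ1 cluster apart from the rest of the library. The motifs searched on the coding strand alone were GGGACAGGG for TRBD1 and GGGACTGGG for TRBD2. They differ by 1 base, neither contains the other, and a CDR3 without either may still hold a trimmed D segment. In a direct deletional join TRBJ1 segments can use TRBD1 but not TRBD2, since TRBD2 lies downstream of the TRBJ1 cluster, whereas TRBJ2 segments can use either. The TRBD2 motif was in 0.451 ± 0.261% of TRBJ1 clonotypes and in 8.54 ± 0.555% of TRBJ2 clonotypes, lower in TRBJ1 in 37 of 37 libraries. The TRBD1 motif was in 10.6 ± 1.02% of TRBJ1 and 5.999 ± 0.374% of TRBJ2 clonotypes, higher in TRBJ1 in 37 of 37 libraries (SD, n = 37).

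Among the members, TRBJ1-2 had the highest TRBD2 motif share at 0.746 ± 0.522% of clonotypes and TRBJ1-5 the lowest at 0.0599 ± 0.110%. TRBJ1-1 had 0.465 ± 0.338%, TRBJ1-3 0.230 ± 0.156%, TRBJ1-4 0.374 ± 0.200% and TRBJ1-6 0.491 ± 0.305%. All 6 lay below the rest of their library in 37 of 37 libraries, by 6.25 to 6.80 percentage points, each with an adjusted permutation p of 1.09e-05. Of the 12 segments 58.3% were called lower by this rule, so of the TRBJ2 segments 1 was called too, TRBJ2-2 (5.49 ± 0.680%). The TRBJ1 entries that did hold the TRBD2 motif were small. Of 1910 such entries 95.4% were of 1 read, and together they held 0.0257% of TRBJ1 reads, against 7.01% of reads for the same motif in TRBJ2.

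TRBJ1-4 had the highest TRBD1 motif share of the 12 segments, 14.7 ± 1.36% of clonotypes, 7.89 ± 1.23 percentage points above the rest of the library. The other 5 members had 9.24% to 10.3% and differences of 2.28 to 3.50 percentage points. The TRBD1 share was higher than in the rest in 37 of 37 libraries for TRBJ1-1, TRBJ1-3, TRBJ1-4 and TRBJ1-6, in 36 for TRBJ1-2 and in 33 for TRBJ1-5, each with an adjusted permutation p of 1.09e-05 (58.3% of the 12 segments were called higher). In the 14 d95 libraries alone, the TRBJ1-5 difference of 1.74 points had an adjusted permutation p of 0.0737. The bar plot of both motifs shows the step between TRBJ1-6 and TRBJ2-1 along the locus.

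**Figure D3:**
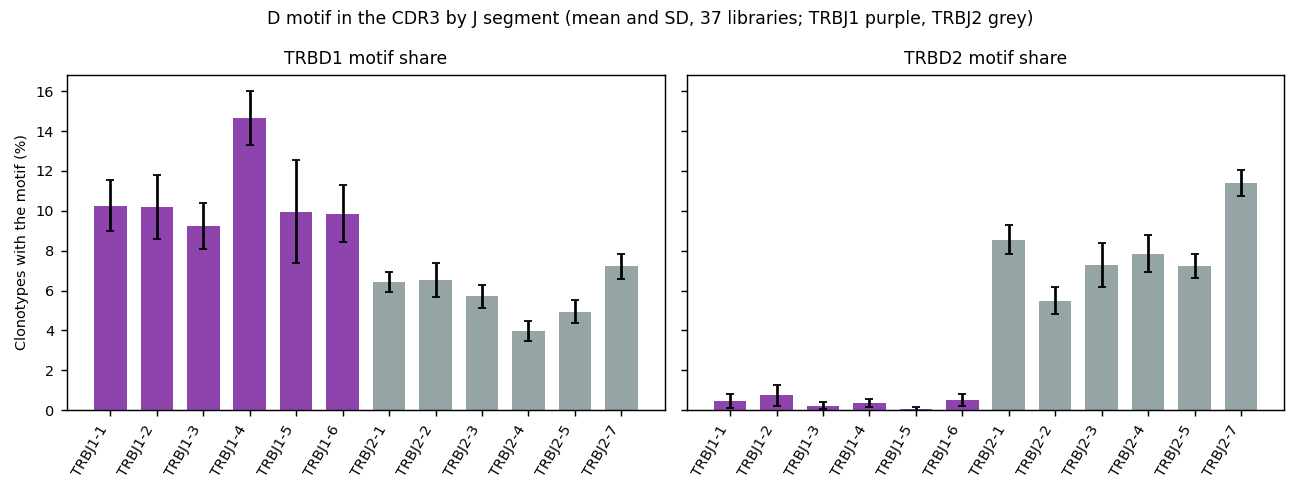
Percent of clonotypes (counted once, vertical axis) whose CDR3 holds the TRBD1 motif (left) or the TRBD2 motif (right), for 12 J segments in locus order. Bars are means of 37 libraries and error bars are SD, with TRBJ1 in purple and TRBJ2 in grey. The TRBD2 motif lies at 0.0599% to 0.746% in TRBJ1 segments and at 5.49% to 11.4% in TRBJ2 segments.

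TRBJ1 clonotypes were seldom public. A clonotype was called public where the same TRBV, TRBJ and amino acid CDR3 was found in at least 50% of the other libraries. The public share of clonotypes was 6.16 ± 1.05% in TRBJ1-1, 3.79 ± 0.952% in TRBJ1-2, 3.76 ± 0.725% in TRBJ1-3, 1.27 ± 0.389% in TRBJ1-4, 0.636 ± 0.967% in TRBJ1-5 and 4.07 ± 1.05% in TRBJ1-6 (SD, n = 37). TRBJ1-2 to TRBJ1-6 lay below the rest of the library in 37 of 37 libraries, by 2.62 to 6.04 percentage points. TRBJ1-1 lay 0.465 ± 0.564 points below it and was higher in 5 libraries. Each of the 6 had an adjusted permutation p of 1.09e-05, and 75% of the 12 segments were called lower. Among them were TRBJ2-1 (5.51%), TRBJ2-2 (4.35%) and TRBJ2-4 (5.56%). TRBJ2-3 (7.63%) and TRBJ2-7 (10.4%) were called higher, and TRBJ2-5 (6.67%) was not called. With public set at 25% of the other libraries, the TRBJ1-1 difference was -0.232 points with an adjusted permutation p of 0.152. Of 2554 amino acid clonotypes found in at least 19 libraries, 14.8% used TRBJ1, against 23.4% of all 1002058 amino acid clonotypes. They were 181 of TRBJ1-1, 69 of TRBJ1-2, 64 of TRBJ1-6, 40 of TRBJ1-3, 19 of TRBJ1-4 and 5 of TRBJ1-5.

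For each member from TRBJ1-1 to TRBJ1-6, the clonotype found as amino acids in the most libraries is printed. Of its nucleotide forms, the one found in the most libraries is shown, with J bases in capitals.

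TRBV3 with TRBJ1-1: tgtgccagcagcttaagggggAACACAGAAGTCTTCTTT
TRBV24 with TRBJ1-2: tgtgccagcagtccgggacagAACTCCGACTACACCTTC
TRBV3 with TRBJ1-3: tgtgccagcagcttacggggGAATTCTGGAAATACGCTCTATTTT
TRBV24 with TRBJ1-4: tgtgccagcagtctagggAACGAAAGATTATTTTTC
TRBV1 with TRBJ1-5: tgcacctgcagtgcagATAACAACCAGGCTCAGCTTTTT
TRBV1 with TRBJ1-6: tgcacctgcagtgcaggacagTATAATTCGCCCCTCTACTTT

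As amino acids the TRBJ1-1 clonotype was found in 36 libraries through 42 nucleotide forms, and its mean share was 0.0165% of reads. The TRBJ1-6 clonotype was in 35 libraries through 13 forms and the TRBJ1-2 clonotype in 31 through 17. The TRBJ1-3 clonotype was in 30 through 21 forms, and the TRBJ1-4 and TRBJ1-5 clonotypes were in 24 each, through 15 and 9 forms. The printed nucleotide forms were in fewer libraries: 18 for TRBJ1-1, 15 for TRBJ1-2, 15 for TRBJ1-3, 5 for TRBJ1-4, 16 for TRBJ1-5 and 20 for TRBJ1-6. By contrast, the TRBJ1-6 clonotype with the highest normalised share, which paired TRBV1, was in 34 libraries with the same nucleotides. The printed TRBJ1-5 clonotype kept 23 J bases. For TRBJ1-7 no clonotype was in more than 2 libraries.

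Large TRBJ1 clonotypes in single libraries took small shares. The largest by reads used TRBV1 and TRBJ1-1, with 1346 reads in R replicate 5 of d95, 0.266% of the library (95% Wilson interval 0.252% to 0.280%). In TRBJ1-2 the largest paired TRBV26 and held 0.232% of reads and 0.0883% of normalised clone counts in NR replicate 1 of d105. The largest TRBJ1-6 clonotype by reads paired TRBV19 and held 0.216% in NR replicate 1 of d95. The largest TRBJ1-4 clonotype paired TRBV30 and held 0.122% in R replicate 2 of d105. The largest TRBJ1-3 clonotype paired TRBV19 at 0.0849%, and the largest TRBJ1-5 clonotype paired TRBV1 at 0.0154% from 14 reads, both in NR replicate 1 of d95, the shallowest library. By normalised clone counts the highest shares were 0.152% for TRBV26 with TRBJ1-1 in PLX+PTX replicate 4 of d105, and 0.167% for TRBV4 with TRBJ1-3, 0.102% for TRBV2 with TRBJ1-4, 0.109% for TRBV1 with TRBJ1-6 and 0.0232% for TRBV5 with TRBJ1-5, all 4 in NR replicate 1 of d95. The last rested on 1 read.

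The TRBV segments differed in how often they were joined to TRBJ1. Of the 10 TRBV segments with at least 1% of clonotypes, TRBV26 used the cluster most, in 37.01 ± 3.32% of its clonotypes (counted once, SD, n = 37), followed by TRBV1 at 23.7 ± 1.17% and TRBV2 at 23.6 ± 1.10%. The lowest were TRBV20 at 15.9 ± 5.13%, TRBV4 at 19.4 ± 2.25% and TRBV5 at 19.6 ± 1.61%. The TRBV26 value was 31.7% in its lowest library, above the highest library of TRBV1 at 27.2%. In normalised clone counts TRBV26 used TRBJ1 in 21.0 ± 4.72%, so this lead belongs to counting clonotypes and reads (45.8 ± 1.88% of reads).

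Pairing was uneven within the cluster too. The observed share of a pair was divided by the product of its V and J shares in the same library, so that 1 stands for independent pairing. Of 60 pairs of 10 TRBV and 6 TRBJ1 segments, 14 lay above 1 in every library and 14 below 1 in every library. Pairs with TRBJ2 segments were not computed, so these counts do not set TRBJ1 apart. TRBJ1-5 had both ends of the range, 2.85 ± 0.607 with TRBV29 and 0.183 ± 0.109 with TRBV5 (SD, n = 37). Counted once, TRBJ1-5 made up 4.43% of TRBV29 and 0.311% of TRBV5 clonotypes. In normalised clone counts these shares lay closer together, at 0.433% and 0.129%. TRBV26 was joined above independence to TRBJ1-2 (2.38 ± 0.223), TRBJ1-3 (2.04 ± 0.323) and TRBJ1-6 (1.91 ± 0.253) in all 37 libraries. TRBV1 was joined to TRBJ1-2 at 0.360 ± 0.0630, below 1 in all 37. TRBJ1-1 had the narrowest range, from 0.611 with TRBV20 to 1.27 with TRBV3. These are descriptions of amplified libraries, in which primer efficiency per pair was not tested. The heat map gives all 60 values.

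**Figure D4:**
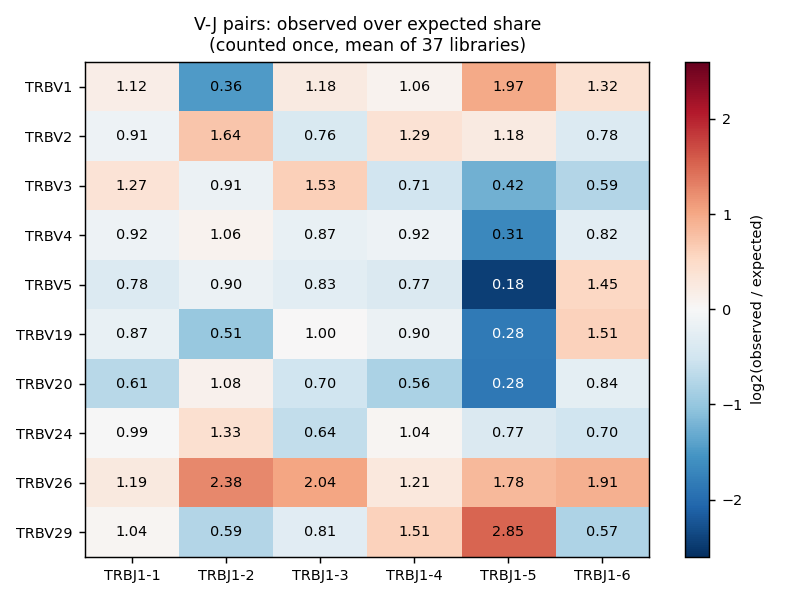
Observed over expected share of each V-J pair (number in each cell, colour on a log2 scale), for 10 TRBV segments (rows) and 6 TRBJ1 segments (columns), clonotypes counted once and averaged over 37 libraries. TRBJ1-5 ranges from 0.183 with TRBV5 to 2.85 with TRBV29.

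The comparisons within a day asked whether TRBJ1 usage differed with response label, antibody or PLX3397, or between MMTV-PyMT and WTNT mice. No TRBJ1 segment passed an adjusted p of 0.05 in any of the 7 comparisons (limma on log2 of the normalised share plus 0.01, adjusted over 24 V and J segments). In each of the 7 comparisons 0% of the 24 segments were called, and at an unadjusted p under 0.05 there were 0 to 6. Differences below are on that log2 scale, with standard errors where given.

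In d105 R against NR libraries, TRBJ1-1 averaged 5.07 ± 0.207% in R and 5.43 ± 0.416% in NR (SD, n = 6 and 4), a difference of -0.10 ± 0.05 with an adjusted limma p of 0.202. TRBJ1-4 averaged 2.34 ± 0.127% in R and 2.54 ± 0.0912% in NR, -0.12 ± 0.06, adjusted limma p of 0.178. TRBJ1-2 (-0.01), TRBJ1-3 (-0.19), TRBJ1-5 (-0.26) and TRBJ1-6 (-0.05) were also not called. Without NR replicate 1, 7 segments were called, among them TRBJ1-1 at -0.14 with an adjusted limma p of 0.0409. Of the V-J pairs, TRBV19 with TRBJ1-6 had the smallest p among TRBJ1 pairs, -0.32 ± 0.12 with an adjusted limma p of 0.226.

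In d105 mice given aPD-1 (R and NR together, n = 10) against PLX+PTX mice (n = 6), the 6 differences ran from -0.12 in TRBJ1-5 to 0.06 in TRBJ1-3, with adjusted limma p of 0.881 to 0.917. TRBJ1-6 averaged 2.59 ± 0.155% with the antibody and 2.59 ± 0.226% without it (SD). The 95% interval of its log2 difference ran from -0.10 to 0.11. The pair nearest to a call was TRBV4 with TRBJ1-4 at -0.20 ± 0.08, adjusted limma p of 0.899.

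In d105 PLX+PTX against PTX libraries, TRBJ1-6 averaged 2.59 ± 0.226% with PLX+PTX (n = 6) against 2.28% and 2.30% in the 2 PTX libraries. The difference of 0.17 ± 0.08 had an adjusted limma p of 0.496. In reads it was 0.25 with an adjusted limma p of 0.0152, and edgeR (adjusted p of 0.0145) and DESeq2 (adjusted p of 0.0155) on reads gave 0.23 each, so the measure decided this call. The other 5 members ran from -0.21 in TRBJ1-5 to 0.13 in TRBJ1-2. TRBJ1-2 lay at 2.01% to 2.42% with PLX+PTX, above both PTX libraries at 1.96% and 1.97%, without passing the test (adjusted limma p of 0.886).

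This was the only one of the 7 comparisons with a called V-J pair, and both called pairs used TRBJ1 (2 of 104 pairs, 1.92%). TRBV26 with TRBJ1-6 held 0.316% to 0.419% of normalised clone counts with PLX+PTX, against 0.237% and 0.243% with PTX, and rose by 0.60 ± 0.11 (adjusted limma p of 0.00253). TRBV24 with TRBJ1-4 held 0.189% to 0.223% with PLX+PTX, against 0.2504% and 0.277% with PTX, and fell by 0.35 on the log2 scale (SE 0.09, adjusted limma p of 0.0473). The groups did not overlap in either pair, but this held for 8 of the 42 TRBJ1 pairs tested here and so marks neither out. The share without overlap over all 104 pairs was not computed. With only 2 PTX mice, leaving out either of them ended both calls, with adjusted limma p of 0.0589 and 0.104 for the TRBV26 pair. The call of the TRBV24 pair ended in 7 of 8 fits that left out 1 library, all but the one without PLX+PTX replicate 1, with adjusted limma p of 0.0299 to 0.693 over the 8. Counted once, the TRBV26 pair was 0.37 with an adjusted limma p of 0.0695. The TRBV24 pair lost its call in 5 of 7 other settings, among them the number series of the mice as a covariate (-0.27, adjusted limma p of 0.293).

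In d105 MMTV-PyMT (n = 18) against WTNT mice (n = 5), the 6 members differed by -0.26 in TRBJ1-5 to 0.07 in TRBJ1-6, with adjusted limma p of 0.831 to 0.941. All 18 MMTV-PyMT mice had PTX, alone or with other agents. No agent is listed for the WTNT mice, whose names form a separate series. Genotype, agents and series therefore cannot be told apart here. TRBJ1-1 averaged 5.27 ± 0.306% in MMTV-PyMT and 5.29 ± 0.273% in WTNT libraries. TRBJ1-5 averaged 0.204 ± 0.106% in MMTV-PyMT libraries and 0.216 ± 0.05002% in WTNT libraries (SD). TRBV1 with TRBJ1-6 was the pair nearest to a call, 0.20 ± 0.09, adjusted limma p of 0.869.

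At d95, R libraries held 6.94%, 6.68%, 6.25%, 6.03% and 5.96% TRBJ1-1, against 8.09%, 6.28% and 6.39% in NR libraries. The highest value belonged to the shallowest library, and the groups overlapped (-0.11 ± 0.11, adjusted limma p of 0.867). The other members ran from -0.14 in TRBJ1-4 to 0.32 in TRBJ1-5. TRBV1 with TRBJ1-3 held 0.232% to 0.303% in R libraries against 0.174% to 0.208% in NR libraries, 0.43 ± 0.18 with an adjusted limma p of 0.595.

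At d95, aPD-1 mice (n = 8) against PLX+PTX mice (n = 3) gave differences of -0.11 in TRBJ1-6 to 0.88 in TRBJ1-5. TRBJ1-1 lay at 5.96% to 8.09% with the antibody, against 6.27%, 4.795% and 5.46% in PLX+PTX libraries (0.26 ± 0.10, adjusted limma p of 0.199). TRBJ1-5 lay at 0.0818% to 0.274% with the antibody, against 0.174%, 0.0360% and 0.0590% without it (0.88 ± 0.42, adjusted limma p of 0.199). TRBJ1-5 passed the 0.1% filter at d95 only through the antibody libraries, which averaged 0.153%, against 0.0897% in PLX+PTX and 0.0672% in PTX libraries. Its difference, and any call of it below, is therefore a description and no support for an effect. In both segments PLX+PTX replicate 1 lay within the antibody range and the other two PLX+PTX libraries below it. Without PLX+PTX replicate 1, 12 of 24 segments were called, among them TRBJ1-1 (0.35, adjusted limma p of 0.0193), TRBJ1-3 (0.35, 0.0365), TRBJ1-4 (0.38, 0.0365), TRBJ1-5 (1.45, 0.0163) and TRBJ1-6 (-0.20, 0.0302), and 39 pairs were called against 0 with it. TRBV3 with TRBJ1-1 was the TRBJ1 pair with the smallest p in this comparison (1.14 ± 0.35, adjusted limma p of 0.153). For d95 PLX+PTX against PTX the 6 differences ran from -0.04 to 0.19, each with an adjusted limma p of 0.975, and TRBV19 with TRBJ1-1 was the nearest pair (-0.50 ± 0.24, adjusted limma p of 0.966).

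Whether these effects changed between days was tested as an interaction for the R against NR, aPD-1 and PLX3397 comparisons. No member passed. Of all 24 segments 4.17% were called for aPD-1, 1 segment outside TRBJ1, and 0% for each of the other comparisons. The smallest p among the members was for TRBJ1-1 under aPD-1, a change of -0.28 ± 0.10 (d105 minus d95) with an adjusted limma p of 0.0885 over 24 segments.

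**Figure D5:**
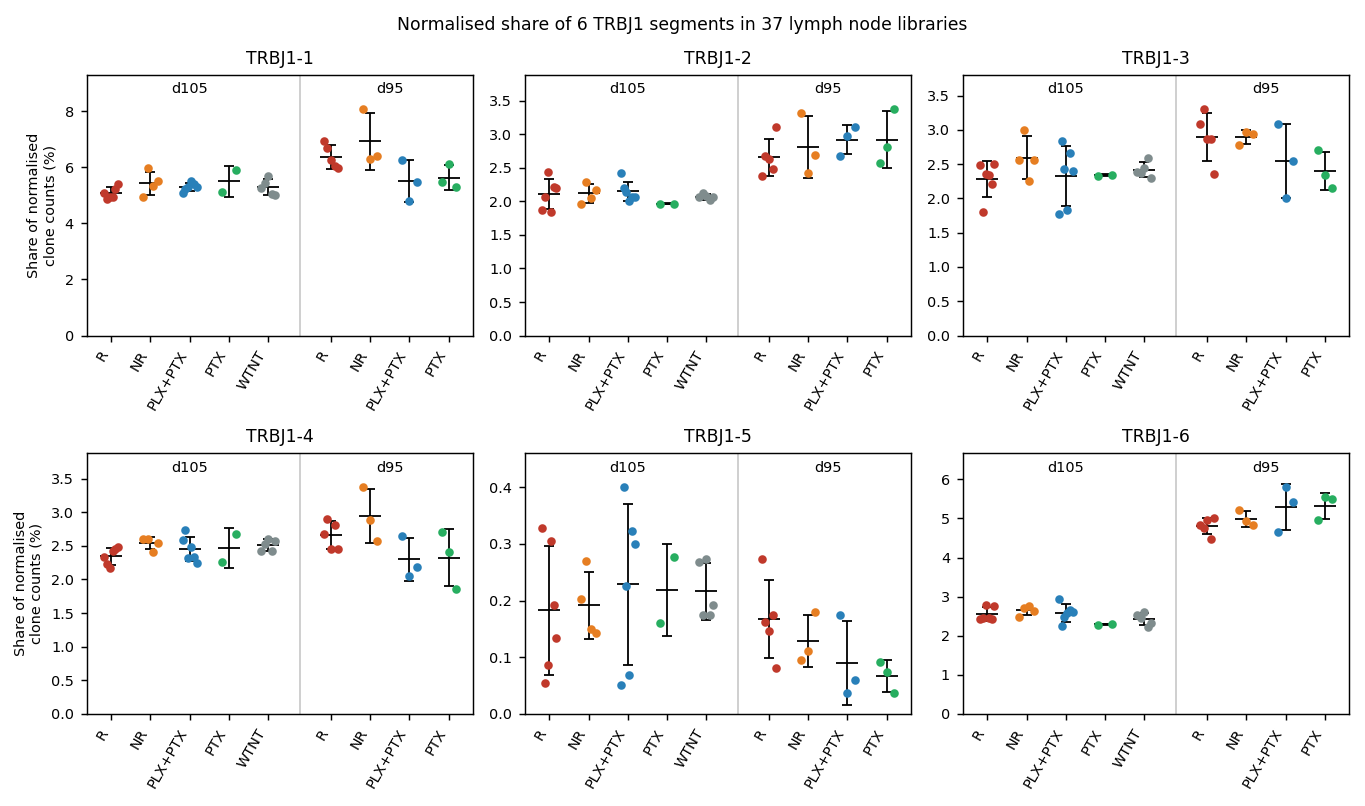
Share of normalised clone counts (percent, vertical axis, starting at 0) of TRBJ1-1 to TRBJ1-6 in each library, by group and day. Points are libraries, horizontal bars are group means and error bars are SD. TRBJ1-6 lies at 2.23% to 2.94% in all 23 d105 libraries and at 4.48% to 5.81% in all 14 d95 libraries.

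The comparison of days gave the large differences. TRBJ1-6 was lower at d105 than at d95 within each treatment. At d105 it averaged 2.56 ± 0.175% in R, 2.65 ± 0.121% in NR, 2.59 ± 0.226% in PLX+PTX and 2.29 ± 0.0104% in PTX libraries, against 4.804 ± 0.208%, 4.99 ± 0.196%, 5.29 ± 0.585% and 5.32 ± 0.326% in the same treatments at d95 (SD). The 18 MMTV-PyMT libraries of d105 lay at 2.25% to 2.94% and the 14 of d95 at 4.48% to 5.81%, without overlap. The fitted difference was -0.99 ± 0.04 with an adjusted limma p of 1.25e-19. The 5 WTNT libraries of d105, which were not in this fit, had 2.53%, 2.45%, 2.601%, 2.23% and 2.32%, 1 of them just below the range of the other d105 libraries and 4 inside it.

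The direction of the TRBJ1-6 difference held in all 10 other settings, while its size did not. It was -0.56 in reads, -0.25 with clonotypes counted once and -0.13 with clonotypes counted once after thinning every library to 90648 reads (adjusted limma p of 0.000351). Between the days depth differed in every library, and day, depth and the series of mouse numbers cannot be told apart. Of the 24 segments 83.3% were called between days (41.7% up and 41.7% down), so a call alone marks no member out. The median difference was 0.0043 over all 24 segments and -0.21 over the 6 members.

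TRBJ1-2 averaged 2.11 ± 0.167% at d105 and 2.80 ± 0.325% at d95 (SD, n = 18 and 14), -0.41 ± 0.05 with an adjusted limma p of 1.57e-08. TRBJ1-1 averaged 5.27 ± 0.306% at d105 and 6.14 ± 0.799% at d95, -0.21 ± 0.05 with an adjusted limma p of 0.000162. TRBJ1-3 averaged 2.37 ± 0.328% at d105 and 2.72 ± 0.383% at d95, -0.20 ± 0.07 with an adjusted limma p of 0.0124. These 3 falls did not hold in reads. There TRBJ1-1 was higher at d105, by 0.25, a call that edgeR (0.15) and DESeq2 (0.14) also made, and TRBJ1-2 (0.05) and TRBJ1-3 (0.11) were not called. TRBJ1-4 averaged 2.44 ± 0.164% at d105 and 2.57 ± 0.386% at d95 and was not called (-0.07 ± 0.06, adjusted limma p of 0.229).

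TRBJ1-5 was the member that rose, to 0.204 ± 0.106% at d105 against 0.121 ± 0.0671% at d95 (0.67 ± 0.30, adjusted limma p of 0.0373). Its lowest, median and highest d105 library over all 23 were 0.0516%, 0.192% and 0.401%, and those of d95 were 0.0360%, 0.103% and 0.274%, so the days overlapped widely. The call ended when any of 13 single libraries was left out. Over all 32 such fits the difference ran from 0.55 to 0.79 and the adjusted limma p from 0.0118 to 0.0927, and in reads the adjusted limma p was 0.0501. After thinning and counting once the difference was -0.37 with an adjusted limma p of 0.278.

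Pairs followed their J segment in TRBJ1-6 and not in TRBJ1-4. All 9 tested pairs with TRBJ1-6 fell at d105, by 0.57 to 1.44 on the log2 scale. TRBV1 with TRBJ1-6 fell furthest, to 0.318 ± 0.0426% at d105 against 0.912 ± 0.339% at d95 (-1.44 ± 0.12, adjusted limma p of 2.49e-12). Of 9 pairs with TRBJ1-4, 6 rose and 3 fell. TRBV3 with TRBJ1-4 rose by 1.07 ± 0.20, and TRBV1 with TRBJ1-4 fell to 0.227 ± 0.0205% at d105 against 0.460 ± 0.145% at d95. Of 9 pairs with TRBJ1-3, 1 rose and 3 fell. That 1 was TRBV2 with TRBJ1-3, which held 0.305 ± 0.0558% at d105 and 0.0982 ± 0.0479% at d95 (1.65 ± 0.17). Its d95 mean lay below the filter of 0.1%, so it entered the day fit only through d105, where it was high. Its rise is therefore given as a description. Of 6 pairs with TRBJ1-2, 4 fell and 0 rose. Of 9 pairs with TRBJ1-1, 4 fell and 1, TRBV29 with TRBJ1-1, rose by 0.71 ± 0.12. In all, 8 of 42 TRBJ1 pairs rose and 23 fell, where 85.7% of all pairs tested were called, 38.1% up and 47.6% down. The median difference was -0.35 over the TRBJ1 pairs and -0.17 over all pairs.

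Named by the smallest adjusted p, the 10 TRBJ1 pairs that fell were TRBJ1-6 with TRBV19, TRBV2, TRBV5, TRBV24 and TRBV1 (-1.20, -1.01, -0.82, -1.22 and -1.44), TRBV1 with TRBJ1-1 (-0.89), TRBV24 with TRBJ1-4 (-0.81) and TRBJ1-3 (-1.14), TRBV2 with TRBJ1-2 (-0.67) and TRBV1 with TRBJ1-4 (-0.94). The other risers were TRBJ1-4 with TRBV19 (0.59), TRBV4 (0.46), TRBV26 (0.41), TRBV5 (0.30) and TRBV29 (0.23). Counted once, TRBV29 with TRBJ1-4 turned to -0.22 and was called in that direction, and TRBV29 with TRBJ1-1 and TRBV4 with TRBJ1-4 to -0.05 and -0.03 without a call.

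Mean CDR3 length weighted by normalised clone counts was called in no within-day comparison for any TRBJ1 segment (0% of 12 TRBJ segments in each of the 7). The smallest adjusted limma p was 0.259, for TRBJ1-5 in d95 aPD-1 against PLX+PTX mice. There the difference was 0.66 residues, with PLX+PTX libraries at 12.25 to 14.01 residues. Leaving out 1 library gave differences of 0.11 to 0.99. As in usage, TRBJ1-5 passed the d95 filter only through the antibody libraries, so this value is a description. Between days 58.3% of the 12 segments were called, all shorter at d105. TRBJ1-1 averaged 13.40 ± 0.0215 residues at d105 and 13.47 ± 0.0567 at d95 (-0.06 ± 0.01, adjusted limma p of 0.000702). TRBJ1-2 (-0.05) and TRBJ1-4 (-0.07) were shorter too, with adjusted limma p of 0.0396 and 0.0322, and TRBJ1-3, TRBJ1-5 and TRBJ1-6 were not called. Leaving out 1 of the 32 libraries ended the TRBJ1-2 call in 15 fits (adjusted limma p up to 0.0997) and the TRBJ1-4 call in 5 (up to 0.0827). Counted once, 4 members were called longer at d105. TRBJ1-1 was longer at d105 by 0.08 (adjusted limma p of 6.03e-06), TRBJ1-2 by 0.11 (adjusted limma p of 1.29e-06), TRBJ1-6 by 0.11 (adjusted limma p of 3.75e-06) and TRBJ1-3 by 0.06 (adjusted limma p of 0.00208). After thinning to equal reads no segment was called.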

How the data were processed

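Each of the 37 files held the rearranged TRB genes of 1 mouse. The deposited clone count is the number of reads of a clonotype, an unnormalised count per the file headers. The normalised clone count and the nb clone count, as deposited, each hold a score: the clone count times a factor fixed for each TRBV and TRBJ pair, rounded to whole numbers by the authors. This was seen in the values, and how the factors were derived is not given in the sources used here, nor are the aligner and the genome build. All entries were productive. Normalised shares therefore change with the factor of each pair, and both scores leave depth unscaled.

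The TRBJ1 segments and all lists were chosen with earlier results of these data known. Groups came from the treatment labels. Shares were taken per library, and log2(percent + 0.01) was tested with limma 3.58.1 (R 4.3.3) for segments, pairs or, for CDR3 length in residues, J segments. Segments and pairs needed a mean share of 0.1%. P-values were adjusted by Benjamini-Hochberg over all features, and 0.05 was the threshold. The d105 fit used 23 libraries, the d95 fit 14 and the day fit 32, with treatment as a term. Within a library, each J segment was set against the rest by a 2-sided sign-flip permutation test with 100000 resamples (Python 3.11.15, numpy 2.4.6). On simulated d105 R against NR data with a 2-fold change, limma recovered 3 of 4 changed segments (0 others called) and 27 of 30 changed pairs (2 others called). The simulated noise was independent between features, unlike shares of a whole. Smaller changes were not simulated, so the power to find them is not known.

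Alternatives were reads, clonotypes counted once, nb clone counts, pseudocounts of 0.1 and 0.001, no filter, edgeR 4.0.16 and DESeq2 1.42.0 on reads, centring within V or J segments, the number series in the mouse names as a covariate, and leaving out each library. Thinning to 90648 reads, a minimum of 2 reads and leaving out TRBJ1-5 partner forms were chosen after seeing the data. Named pairs were those past the threshold, up to 10 per direction, or else the pair with the smallest p. Named clonotypes had the highest share of reads, the highest normalised share or the most libraries per segment. A planned likeness between segments across libraries was left out, because the libraries form separate clusters by day. The substitution in TRBJ1-5 was read from the entries, with no germline sequence at hand.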

Additional observations from a re-analysis of the deposited data

Results flagged for a closer look

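In 60 groups of segment values, 2 libraries lay apart from their group by Dixon's gap test, where chance gives about 1 in 20. Both are mean CDR3 lengths with clonotypes counted once, in d95 R mice. For TRBJ1-2, R replicate 3 had a mean of 13.5748 residues, below the other 4 libraries at 13.6734 to 13.7127. For TRBJ1-6, R replicate 1 had a mean of 14.3909 residues, above the other 4 at 14.2299 to 14.2756. The gap was 0.715 of the range in the first and 0.716 in the second, both just above the critical value of 0.71.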

How the results depend on the processing

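Of 3467 values recomputed under an alternative, 2376 of them by leaving out a library, 3319 kept their side of the threshold or stayed close to their count. A turn in direction counted as a change only where either fit passed the threshold, so values called in neither fit may have changed sign. In the d105 R against NR comparison, counting clonotypes once called 1 segment and 1 pair, against 0 and 0. In d105 PLX+PTX against PTX, segment calls were 2 with reads, nb clone counts, edgeR and DESeq2 and 1 without the filter, against 0. Pair calls there were 1 with reads, nb clone counts, a pseudocount of 0.1 or the number series as a covariate, and 0 counted once, against 2. In MMTV-PyMT against WTNT mice, counting once called 2 segments, and in d95 aPD-1 against PLX+PTX mice DESeq2 called 6, against 0 in each. The cause of these changes was not tested.

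Leaving out 1 library gave 0 to 7 segments and 0 to 7 pairs in d105 R against NR, with 7 of each without NR replicate 1 and 2 segments without R replicate 6. It gave 0 to 12 segments and 0 to 39 pairs in d95 aPD-1 against PLX+PTX mice, the highest of both without PLX+PTX replicate 1. It gave 0 to 1 segment in d95 PLX+PTX against PTX and 0 to 2 pairs in d105 PLX+PTX against PTX. For CDR3 length it gave 0 to 1 segment in d105 PLX+PTX against PTX and 0 to 2 in d95 aPD-1 against PLX+PTX mice.

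Between days, segment usage, d105 vs d95: TRBJ1-1 turned to 0.25 in reads, 0.15 in edgeR and 0.14 in DESeq2. TRBJ1-2 turned to 0.048 in reads and 0.034 after thinning, TRBJ1-3 to 0.11 in reads and 0.014 in edgeR, and TRBJ1-5 to -0.37 after thinning. Among pairs counted once, TRBV29 TRBJ1-1 turned to -0.046, TRBV4 TRBJ1-4 to -0.026 and TRBV29 TRBJ1-4 to -0.22. CDR3 length, d105 vs d95, called 0 segments after thinning, against 7. Counted once, its differences turned to 0.081 in TRBJ1-1, 0.11 in TRBJ1-2, 0.057 in TRBJ1-3 and 0.016 in TRBJ1-4, and after thinning to 0.0015 in TRBJ1-1 and 0.023 in TRBJ1-2. Leaving out 1 library gave -0.12 to 0.060 for TRBJ1-5, the lowest without d95 PLX+PTX replicate 2. Within libraries, the read-weighted length difference of TRBJ1-5 was 0.0197. The share of the TRBJ1 cluster, 16.6% of normalised clone counts, was 24.4% of reads, 22.1% counted once and 20.4% of nb clone counts.

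No paired analysis was possible because the replicate numbers follow the order of the samples and pair no mice. Depth limits the d95 libraries most, and TRBJ1-5 and TRBJ1-7 in all of them.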
